A study of Mus musculus with 51 samples.

Results

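Apoptosis regulators of the Bcl2 and IAP families were described in mouse alveolar macrophages that had met Aspergillus fumigatus conidia in the living lung. The genes were Cflar, Mcl1, Bcl2l1, Bcl2l11, Pmaip1, Bax, Bak1, Bid, Birc2 and Birc3, and each was represented by the probe set of its platform symbol with the highest mean signal over all arrays. Of these 10 genes, 9 were measured, by 27 of 22626 probe sets, among 12393 genes in all. No probe set used here carried the symbol Bax alone, and Bax was not analysed here.

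Conidia are the airborne spores of the mould, and the series asked whether macrophages of a normal and an immune-compromised host respond differently. RNA came from alveolar macrophages harvested from the lungs of C57Bl/6 mice (WT) or gp91phox-/- mice (KO), whose deletion removes, in all cells, a membrane subunit of NADPH oxidase in phagocytes. The WT groups were untreated at 0 h, then mock, e6 or e7 conidia, each at 2 h and 4 h, with 4 arrays per group, plus polystyrene beads at 4 h with 2 arrays. In KO there were 3 arrays for each of these 7 conditions without beads, which made 51 arrays in 15 groups. The labels write the conidia doses as e6 and e7 and call the replicates biological. They do not say how many mice stood behind an array, and they give no age or sex, so the p-values measure the spread between arrays as labelled. The treatment field of the WT mock arrays at 4 h says conidia although the titles say mock, and grouping here is by title.

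Cells die by apoptosis through a mitochondrial and a death receptor route. At mitochondria, Mcl1 and Bcl2l1 (Bcl-xL) hold the pore-forming proteins Bax and Bak1 in check, and BH3-only proteins such as Bcl2l11 (Bim), Bid and Pmaip1 (Noxa) release this brake. At death receptors, Cflar (c-FLIP), a caspase-8 relative without protease activity, limits caspase-8 activation, while Birc2 and Birc3 (cIAP1 and cIAP2) are ubiquitin ligases of the TNF receptor complex. In macrophages, several of these genes are known NF-kB or stress targets, and macrophage death is one of the outcomes of fungal contact.

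The promoter sequences of Cflar, Bid and Bcl2l11 are shown. Windows of 8 members in the RefSeq table of assembly GRCm38.p6 were read. Of these 8, the 3 shown both varied over the 15 groups and differed between the genotypes. Pmaip1 did both too, but its promoter was not among those read. The 250 bases before the annotated start are printed 5′ to 3′ on the gene's strand, at chr1:58711241-58711490 on the plus strand for Cflar, chr6:120916825-120917074 on the minus strand for Bid and chr2:128125788-128126037 on the plus strand for Bcl2l11. Capitals mark TATAAA in Cflar, GGGCGG in Bid and the reverse complement of TGTTTAC in Bcl2l11.
Cflar: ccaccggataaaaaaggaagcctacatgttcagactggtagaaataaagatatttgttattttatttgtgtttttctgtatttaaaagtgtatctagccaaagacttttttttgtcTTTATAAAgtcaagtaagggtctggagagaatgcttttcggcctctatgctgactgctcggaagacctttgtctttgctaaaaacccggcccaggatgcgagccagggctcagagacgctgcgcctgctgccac
Bid: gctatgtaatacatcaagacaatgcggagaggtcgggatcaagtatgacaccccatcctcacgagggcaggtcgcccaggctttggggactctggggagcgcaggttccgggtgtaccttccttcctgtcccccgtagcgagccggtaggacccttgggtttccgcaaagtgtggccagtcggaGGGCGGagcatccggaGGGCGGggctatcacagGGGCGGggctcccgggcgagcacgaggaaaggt
Bcl2l11: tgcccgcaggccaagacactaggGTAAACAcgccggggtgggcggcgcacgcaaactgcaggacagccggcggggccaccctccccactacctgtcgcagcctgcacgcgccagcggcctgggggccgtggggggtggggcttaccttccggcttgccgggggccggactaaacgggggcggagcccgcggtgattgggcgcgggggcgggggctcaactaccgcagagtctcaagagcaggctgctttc
The capitals in Cflar hold 2 overlapping matches to TATAAA, 1 on each strand, and those in Bid hold 3 matches to GGGCGG. The Bcl2l11 stretch also holds 3 matches to GGGCGG, which are not in capitals. Another Bcl2l11 window, not printed, held no match to TGTTTAC. The stretch before Cflar was 42.8% G and C, that before Bid 63.6% and that before Bcl2l11 72%, against a median of 52.4% over all windows. On either strand of the 300-base windows, which include 50 bases after the start, TATAAA was present in 13.6% of all 32851 windows, GGGCGG in 35.7%, TGTTTAC in 3.65%, the AP-1 motif TGANTCA in 7.81% and the NF-kB consensus in 8.46%. Among the 12 windows of 8 members, these 5 motifs were present in 1, 5, 1, 0 and 1 windows. A match is a run of letters and not a shown site.

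Of the cell type marker lists, that of alveolar macrophages was the brightest on the arrays. The mean over 9 measured alveolar macrophage markers, among them Siglecf, Marco and Car4, lay between 12.17 and 13.01 (log2 signal) on the 51 arrays. The mean over 10 neutrophil markers lay between 4.48 and 8.87, with a median of 5.84. That over 9 lung epithelium markers lay between 6.52 and 8.10, with a median of 7.37, so epithelial transcripts were also present. Cybb, which the KO mice lack, lay between 10.59 and 12.12 on WT arrays and between 6.77 and 9.06 on KO arrays, without overlap. Arrays of the same group correlated at 0.899 to 0.949. The highest neutrophil values belonged to WT arrays at 4 h, which were mock replicate 3 at 8.87, e6 replicate 4 at 8.04 and e7 replicate 3 at 7.52. The 3′ to 5′ signal ratio of control transcripts (log2), a measure of RNA integrity, also differed between groups and is given beside the results it moved with. In these bulk samples, fewer cells of a type and less RNA per cell cannot be told apart.

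Over the 15 groups, Cflar, Pmaip1, Bid, Bcl2l11 and Bak1 varied. The moderated F-test of limma called these 5 of 9 members at an adjusted p under 0.05, with Benjamini-Hochberg adjustment across every probe set, against 45.4% of all genes. The share of members called was near this background. The adjusted p was 2.41e-06 for Cflar, 5.74e-06 for Pmaip1, 3.44e-05 for Bid and 0.00849 for Bcl2l11. For Bak1 it was 0.0461, and the call held in 19 of 57 refits. With signals under 50 set to 50, the adjusted p of the F-test for Bak1 was 0.101. The call of Bcl2l11 was lost in 1 of 58 refits, without WT e7 arrays 2 and 3 at 4 h (adjusted p = 0.0515). The adjusted p was 0.0685 for Mcl1, 0.0725 for Birc2, 0.178 for Birc3 and 0.238 for Bcl2l1.

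**Figure D1:**
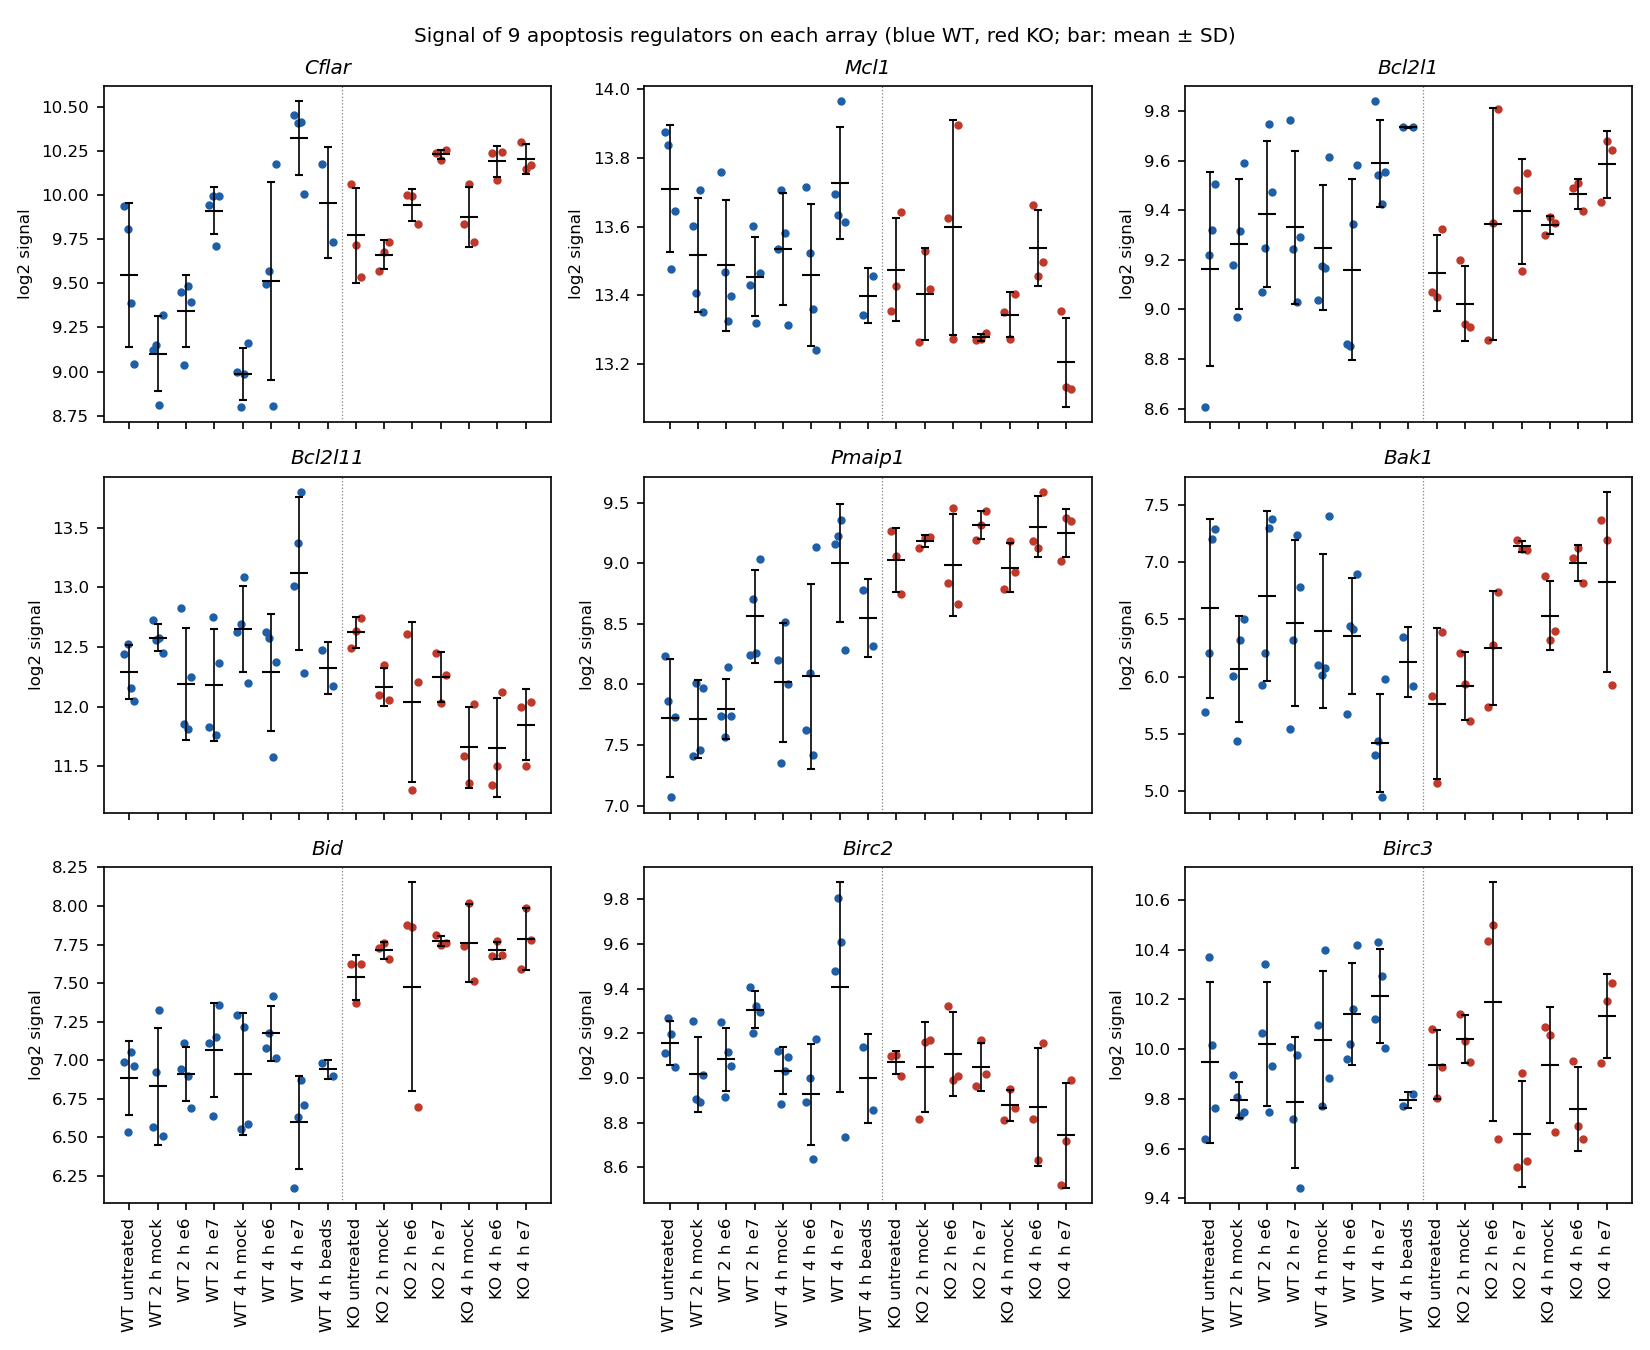
Log2 signal of the main probe set of each of the 9 measured genes on every array (points, blue WT, red KO) in the 15 groups along the horizontal axis, with bars for the group mean ± SD and a separate vertical scale in each panel. Cflar rises from mock to e7 conidia in WT, Pmaip1 and Bid are higher in KO than in WT in all 7 shared conditions, and Mcl1 stays between 13.13 and 13.96 on all arrays.

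The range between the highest and lowest group mean was 2.53-fold for Cflar, from 8.99 in WT mock at 4 h to 10.32 in WT e7 at 4 h. Pmaip1 spanned 3.03-fold, from 7.71 in WT mock at 2 h to 9.31 in KO e7 at 2 h. Bcl2l11 spanned 2.75-fold, from 11.66 in KO e6 at 4 h to 13.12 in WT e7 at 4 h. Bid had its lowest mean, 6.60, in WT e7 at 4 h and its highest, 7.79, in KO e7 at 4 h. The other ranges were 3.3-fold for Bak1, 1.64-fold for Bcl2l1, 1.58-fold for Birc2, 1.47-fold for Birc3 and 1.44-fold for Mcl1. Placed in order of mean, neighbouring groups differed by more than both of their SDs at 1 of 14 steps for Cflar, Bcl2l11, Pmaip1, Bid and Birc2, and at 0 of 14 for the other 4 members. For Cflar this step lay between WT e6 and WT mock at 2 h, and for Pmaip1 between the 8 highest groups, 7 of them KO and the other WT e7 at 4 h, and WT e7 at 2 h.

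Cflar was the member that changed with conidia at both times in WT. In WT mock at 4 h its values were 8.996, 8.80, 8.98 and 9.16 (log2 signal), and with e7 conidia at 4 h they were 10.46, 10.41, 10.42 and 10.01. Every e7 array lay above every mock array, as it did for 3.92% of genes in this direction. The difference was 1.34 ± 0.18 (log2, limma SE), a 2.53-fold rise with adjusted p = 1.72e-05. At 2 h the WT mock arrays were at 9.12, 9.15, 8.81 and 9.32. The e7 arrays were at 9.94, 9.998, 9.71 and 9.996, again without overlap, as for 5.89% of genes in this direction. That rise was 0.81 ± 0.18, or 1.76-fold (limma, adjusted p = 0.0169). All 4 Cflar probe sets were called higher at 4 h, with differences of 0.98 to 1.60, and 1 of 4 at 2 h.

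At 2 h the call for Cflar was lost, at an adjusted p of 0.0503 to 0.0993, without e7 replicate 1, 2 or 4 or mock replicate 2 or 3. The 3′ to 5′ ratio was 2.09 to 4.85 in WT e7 and 0.93 to 1.47 in WT mock at 2 h, and with this ratio as a covariate the difference was 0.60 with adjusted p = 0.224. At 4 h the ratio was 1.26 to 3.83 in e7 and 1.19 to 2.34 in mock, and with the covariate the rise was 1.26 with adjusted p = 1.84e-05. When only the 8 arrays compared were fitted, the 4 h difference kept its size and its adjusted p was 0.186.

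Pmaip1, the BH3-only partner of Mcl1, was the other member called at 4 h. In WT mock its values at 4 h were 8.20, 7.35, 8.51 and 8.004, and with e7 conidia they were 9.16, 9.22, 9.36 and 8.28. The first 3 e7 arrays lay above all mock arrays, and replicate 4 lay within the mock range. The rise was 0.99 ± 0.28 (log2), or 1.98-fold, with adjusted p = 0.0132 in limma. It lost its call without e7 replicate 2 (0.91, adjusted p = 0.0547), e7 replicate 3 (0.87, adjusted p = 0.0736) or mock replicate 2 (0.77, adjusted p = 0.0857). At 2 h, Pmaip1 was at 7.41, 8.01, 7.46 and 7.97 in mock and at 8.24, 8.70, 8.26 and 9.04 with e7 conidia, with no overlap, as for 5.89% of genes in this direction and 6.16% in the other. The difference of 0.85 ± 0.28 did not pass at 2 h (adjusted p = 0.106).

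**Figure D2:**
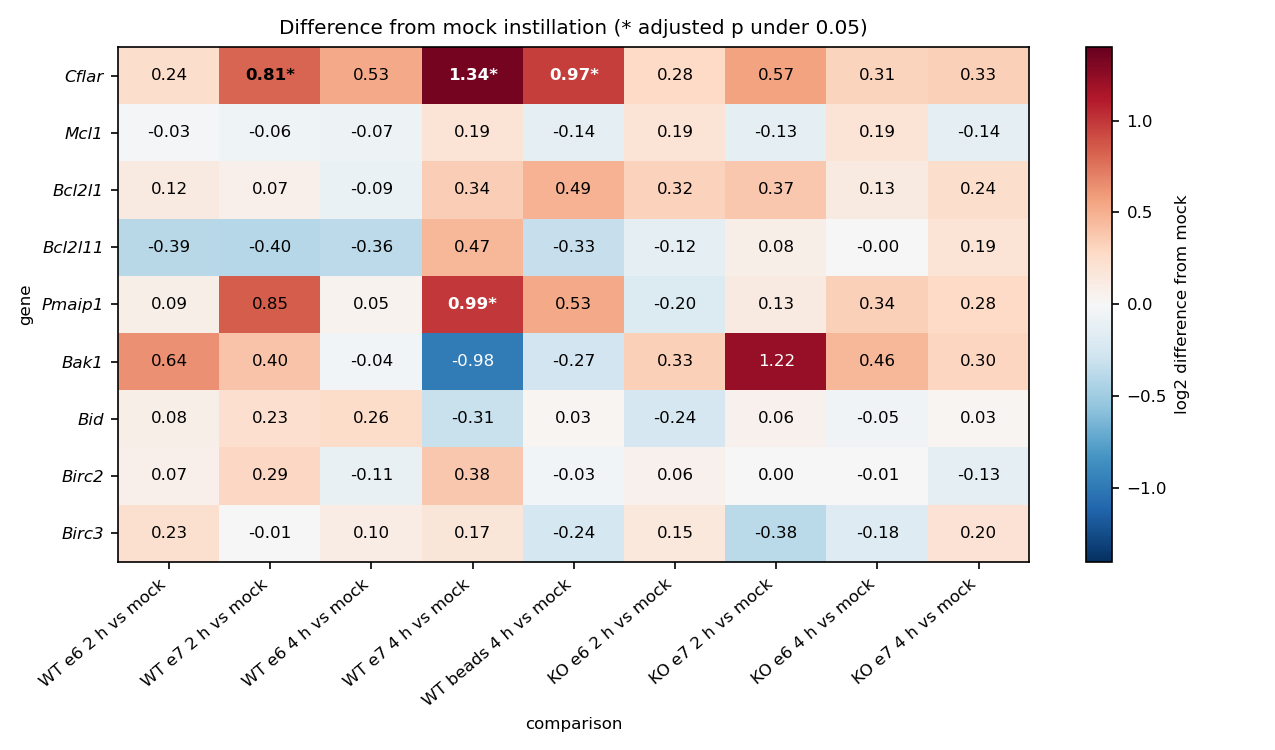
Log2 difference from mock instillation at the same time for each gene (rows) and comparison (columns), coloured from blue (lower) to red (higher), with the value printed and an asterisk where the adjusted p of limma was under 0.05. The 4 asterisks are Cflar with e7 conidia at 2 h (0.81) and 4 h (1.34) and with beads (0.97), and Pmaip1 with e7 conidia at 4 h (0.99), all in WT.

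In WT with e7 conidia, 1 of 9 members was called at 2 h, against 1.76% of all genes (1.02% higher and 0.734% lower), and 2 of 9 at 4 h, against 17.5%. The share at 4 h was near the background of that comparison, in which 6.11% of genes were called higher and 11.4% lower. The median difference of the 9 members at 4 h was 0.34, against -0.08 over all genes. No member was called lower.

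The alveolar macrophage markers moved with e7 conidia in WT. Their list mean was 12.574 to 12.72 in mock and 12.17 to 12.568 with e7 conidia at 4 h, and 12.56 to 12.79 and 12.46 to 12.55 at 2 h, without overlap at either time. On the bead arrays it was 12.29 to 12.34. At 4 h, 2 of 9 of these markers and 2 of 10 neutrophil markers were called lower with e7 conidia and 1 of 9 lung epithelium markers higher, and at 2 h none of the lists held a call. With beads, 1 of 9 alveolar macrophage markers was called lower. The part of these shifts in the members' differences was not tested.

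Bak1, the pore-forming effector, was measured low, and its values at 4 h lay between 6.01 and 7.41 in WT mock and between 4.94 and 5.98 with e7 conidia. All 4 e7 arrays lay below all mock arrays, as for 6.48% of genes in this direction, but the difference of -0.98 ± 0.40 did not pass (limma, adjusted p = 0.089). Birc2 was at 8.88 to 9.12 in mock and at 8.73 to 9.81 with e7 conidia, with replicate 4 lowest, and its difference was 0.38 ± 0.15 (adjusted p = 0.0934). Without e7 replicate 4, Birc2 differed by 0.60 (adjusted p = 0.00088) and Bak1 by -1.17 (adjusted p = 0.0412). The geometric mean of Bak1 with e7 conidia was a signal of 42.7, under 50, so the size of its fall is not read. The main Bak1 probe set lay under a signal of 50 on 7 of 51 arrays. The remaining differences in WT at 4 h were 0.34 for Bcl2l1, 0.19 for Mcl1, -0.31 for Bid and 0.17 for Birc3, with adjusted p-values of 0.256, 0.351, 0.352 and 0.583. For Mcl1, a short-lived protein that guards myeloid cells, the 95% interval of the difference was -0.06 to 0.45.

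Bcl2l11 gave opposite readings in different probe sets. Its brightest probe set, 1456005_a_at, was at 12.62, 12.69, 13.09 and 12.20 in WT mock at 4 h and at 13.01, 13.37, 13.80 and 12.29 with e7 conidia, a difference of 0.47 ± 0.28 that did not pass (adjusted p = 0.298). Probe set 1435449_at was at 8.10, 8.26, 8.42 and 8.22 in mock and at 6.28, 6.54, 6.57 and 8.05 with e7 conidia. The e7 arrays were all below the mock arrays in 1435449_at, as for 6.48% of genes by their main probe sets. Replicate 4, at 8.05, lay just under the lowest mock array at 8.10. The fall was 1.39 in 1435449_at (limma, adjusted p = 0.004), and 1456006_at fell by 1.10 (adjusted p = 0.00167). Probe set 1435448_at differed by -0.39 (adjusted p = 0.053) and 1426334_a_at by 0.04 (adjusted p = 0.953). No direction is given for Bcl2l11 as a gene after e7 conidia. Which transcript each probe set reads was not analysed here.

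Probe sets of other members disagreed too. All 6 Mcl1 probe sets lay above 0 in WT e7 against mock at 4 h, from 0.19 to 0.63, and 1 was called, 1416881_at at 0.63 (adjusted p = 0.004). The second Bid probe set, 1448560_at, was called lower (adjusted p = 0.0294), but it lay under a signal of 50 on 50 of 51 arrays, so its size is not read, while the main one was 7.23 on average and did not pass. The second probe set of Bak1, 1425716_s_at, differed by 1.16, in the other direction from the main one, did not pass, and lay under a signal of 50 on 51 of 51 arrays.

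**Figure D3:**
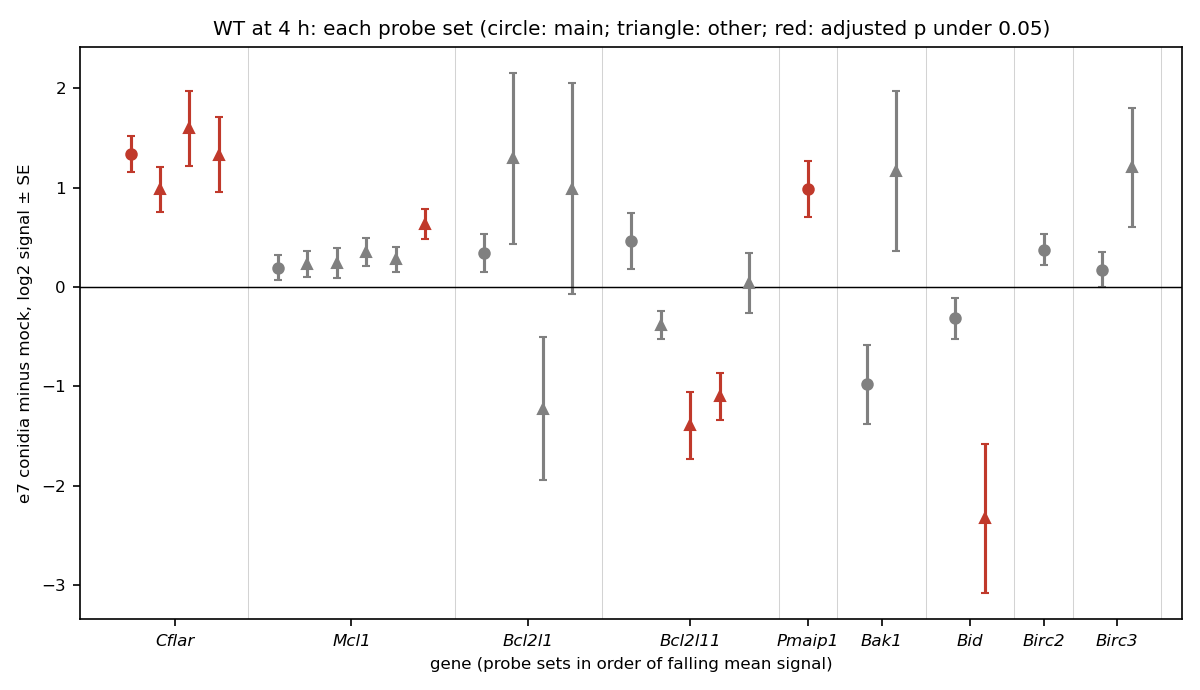
Log2 difference of WT e7 conidia from WT mock at 4 h (vertical axis, point ± SE) for each of the 27 probe sets, grouped by gene and ordered within a gene by falling mean signal; circles are main and triangles other probe sets, and red marks an adjusted p under 0.05. The 4 Cflar probe sets all lie above 0, whereas those of Bcl2l11 lie on both sides, from -1.39 to 0.47.

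Polystyrene beads, particles without fungal molecules, were given to WT mice at 4 h only. Cflar was at 10.18 and 9.74 on the 2 bead arrays, both above the 4 mock arrays, as for 16.1% of genes. The rise was 0.97 ± 0.23, or 1.96-fold (limma, adjusted p = 0.0288), and Cflar was the 1 member of 9 called, against 1.17% of all genes. The 3′ to 5′ ratio was 4.11 to 5.32 on the bead arrays and 1.19 to 2.34 on the mock arrays, and with this covariate the difference was 0.63 with adjusted p = 0.41. Without beads replicate 1 the difference was 0.75 (adjusted p = 0.476), and the call was also lost without mock replicate 1, 2 or 3 (adjusted p = 0.0515 to 0.0767). All 4 Cflar probe sets lay above mock, by 0.80 to 0.97, and 1 was called. Bcl2l1 was at 9.73 and 9.74 with beads, above its mock arrays at 9.04 to 9.62, as for 16.1% of genes. Its difference of 0.49 ± 0.24 did not pass (limma, adjusted p = 0.278).

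Between e7 conidia and beads at 4 h, 0 of 9 members were called, against 3.98% of all genes, and 3 members had an unadjusted p under 0.05, against 21.9% of all genes. Cflar differed by 0.36, with a 95% interval of -0.09 to 0.82. The 3 members were Bcl2l11, Birc2 and Mcl1, at differences of 0.79, 0.41 and 0.33 and adjusted p-values of 0.182, 0.206 and 0.223. Every conidia array lay above both bead arrays for Mcl1 and Birc3, as for 4.69% of genes, and below both for Bid, as for 13.5%. Of all genes 1.28% were called higher and 2.7% lower. The 3′ to 5′ ratio was 1.26 to 3.83 with e7 conidia and 4.11 to 5.32 with beads, and with it as a covariate the adjusted p-values of the 9 members still missed the threshold, with Birc2 at 0.59 (adjusted p = 0.0573) and Bcl2l11 at 1.10 (adjusted p = 0.0588). Without e7 replicate 4, Bcl2l11 (1.07, adjusted p = 0.0312) and Birc2 (0.63, adjusted p = 0.00733) passed.

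With e6 conidia no member was called against mock in either genotype at either time. The adjusted p of Cflar in WT at 4 h was 0.772 for a difference of 0.53 ± 0.18, and its 4 values spread widely, at 9.50, 9.57, 8.80 and 10.18. At an unadjusted p under 0.05 this was 1 of 9 members in WT at 4 h, against 4.87% of genes, and 0 of 9 in WT at 2 h, KO at 2 h and KO at 4 h, against 4.01%, 3.35% and 7.36%. Of all genes, 0% were called in WT at 2 h, 0.0161% in WT at 4 h, 0% in KO at 2 h and 0.0807% in KO at 4 h (0.0323% higher and 0.0484% lower). In WT, e6 and mock arrays overlapped for every member, while 1.55% of genes lay wholly higher and 1.49% wholly lower at 2 h, and 1.38% and 1.27% at 4 h. In KO, Cflar lay wholly above mock at 2 h, as for 5.04% of genes, and Cflar, Mcl1 and Bcl2l1 did so at 4 h, as for 9.94%, with 4.78% wholly lower. As a mean over genotypes and times, Cflar was 0.42 ± 0.10 higher with e7 than with e6 conidia (limma, adjusted p = 0.00619), and Pmaip1 0.49 ± 0.15 higher (adjusted p = 0.0347). These were 2 of 9 members, against 9.4% of all genes. The call for Cflar held in 36 of 36 refits and that for Pmaip1 in 20 of 36. All 4 Cflar probe sets lay above 0, from 0.14 to 0.87, and 2 were called. The second Birc3 probe set, 1425223_at, was called lower (-1.04), but lay under a signal of 50 on 28 of 51 arrays. Mcl1 probe set 1416881_at was 0.30 higher with e7 (adjusted p = 0.0164), while the main Mcl1 probe set differed by -0.10.

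In KO mice, e7 conidia called 0 of 9 members at 2 h, against 8.54% of all genes (5.88% higher and 2.65% lower), and 0 of 9 at 4 h, against 0.00807%. At an unadjusted p under 0.05, 2 of 9 passed at 2 h, Cflar and Bak1, against 25.8% of genes, and 0 of 9 at 4 h, against 6.8%. Cflar in KO was at 9.57, 9.68 and 9.74 in mock and at 10.24, 10.20 and 10.26 with e7 conidia at 2 h. The groups did not overlap, as for 26.7% of genes in this direction, and the difference of 0.57 ± 0.21 did not pass (limma, adjusted p = 0.0851). At 4 h Cflar was at 9.83, 10.06 and 9.73 in KO mock and at 10.30, 10.15 and 10.17 with e7 conidia, a difference of 0.33 ± 0.21 (adjusted p = 0.818). These did not overlap either, nor did those of Bcl2l1, as for 6.87% of genes. The KO mock arrays at 4 h all lay above the WT mock arrays at the same time for Cflar, as for 12.6% of genes. Bak1 in KO at 2 h was 1.22 ± 0.46 higher with e7 conidia and also did not overlap with mock (adjusted p = 0.0843), while Birc3 lay wholly below mock at a difference of -0.38, as for 12.3% of genes. The 3′ to 5′ ratio in KO was 1.45 to 2.997 with e7 conidia and 0.92 to 1.22 in mock at 2 h, without overlap, and 0.93 to 1.18 and 1.41 to 2.61 at 4 h, without overlap in the other direction. With it as a covariate, the difference of Cflar was 0.45 at 2 h (adjusted p = 0.171) and 0.43 at 4 h (adjusted p = 0.606), and that of Bak1 at 2 h was 1.28 (adjusted p = 0.0928). The alveolar macrophage list mean in KO at 2 h was 12.87 to 12.93 in mock and 12.65 to 12.69 with e7 conidia, and 2 of 10 neutrophil, 2 of 7 T and NK cell and 1 of 4 endothelium and stroma markers were called higher. The part of these markers was not tested.

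The response to e7 conidia at 4 h was compared between the genotypes directly. For Cflar it was 1.01 ± 0.28 smaller in KO than in WT (log2), and the adjusted p of this difference was 0.0756 in limma, so it did not pass. Its 95% interval was -1.58 to -0.44. Without WT e7 replicate 4, the lowest of its group, the difference was -1.11 (adjusted p = 0.0101), and with dim probe sets left out its adjusted p was 0.028. With the 3′ to 5′ ratio as a covariate it was -0.84 (adjusted p = 0.197). Birc2 differed by -0.51 (adjusted p = 0.254) and Bak1 by 1.28 (adjusted p = 0.27). At both times 0 of 9 members were called, against 1.35% of all genes at 2 h and 0.218% at 4 h. At an unadjusted p under 0.05, 0 of 9 passed at 2 h, against 15.9% of genes, and 3 of 9 at 4 h, Cflar, Bak1 and Birc2, against 18.4%.

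Among the members, the genotypes differed most in Pmaip1 and Bid. As a mean over the 7 shared conditions, Pmaip1 was 1.02 ± 0.11 higher in KO than in WT (log2), which is 2.03-fold with adjusted p = 6.7e-09 in limma. It was higher in 7 of 7 conditions, without overlap in 5, and 2.26% of all genes lay wholly higher in KO in 5 or more. Before any treatment Pmaip1 was at 8.23, 7.87, 7.07 and 7.73 in WT and at 9.27, 9.06 and 8.74 in KO, and all KO arrays were above all WT arrays, as for 6.9% of genes. The genotype difference was 1.47 after mock at 2 h and 0.24 with e7 conidia at 4 h, where WT reached 9.004 ± 0.49 (SD, n = 4) and KO was at 9.25 ± 0.20 (SD, n = 3).

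Bid, which carries the death receptor signal to mitochondria once caspase-8 cleaves it, was 0.77 ± 0.08 higher in KO, or 1.7-fold (limma, adjusted p = 3.74e-09). It was higher in 7 of 7 conditions and did not overlap in 6, and 1.35% of all genes lay wholly higher in 6 or more. Over all arrays it ranged from 6.17 to 7.42 in WT, with a median of 6.95, and from 6.69 to 8.02 in KO, with a median of 7.74. The exception was KO e6 at 2 h, where replicates 1 and 2 were at 7.87 and 7.86 and replicate 3 at 6.69. The second Bid probe set, nearly all of it under a signal of 50, was also called higher and adds no support.

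Cflar was 0.45 ± 0.08 higher in KO (limma, adjusted p = 1.33e-05). It was higher in 6 of 7 conditions, by up to 0.89 after mock at 4 h, and 0.12 lower with e7 conidia at 4 h. All 4 Cflar probe sets were called higher, by 0.27 to 0.57. Mcl1 was slightly lower in KO, at -0.15 ± 0.05 (adjusted p = 0.0239), and all 6 of its probe sets were called lower, although in single conditions the main probe set was lower in 5 of 7. With the 3′ to 5′ ratio as a covariate the main probe set of Mcl1 lost its call, at -0.13 (adjusted p = 0.0514).

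Bcl2l11 by its main probe set was 0.44 ± 0.11 lower in KO (limma, adjusted p = 0.00338), and lower in 5 of 7 conditions. After mock at 4 h the WT arrays were at 12.20 to 13.09 and the KO arrays at 11.36 to 12.03, without overlap, as for 6.75% of genes in this direction. With e7 conidia at 4 h the main probe set differed by -1.27, whereas 1435449_at was 0.84 higher in KO (7.70 against 6.86) and 1456006_at 0.83 higher (7.59 against 6.76), with no test of these single-condition differences. Untreated KO arrays had the higher mean in the main probe set, by 0.33. Probe set 1435448_at was called lower too, at -0.30 (adjusted p = 0.000101), while 1435449_at, 1456006_at and 1426334_a_at differed by -0.11, 0.14 and 0.12 and did not pass. Birc2 was 0.17 ± 0.06 lower (adjusted p = 0.0369), a call that held in 41 of 57 refits and was lost with the 3′ to 5′ covariate (-0.14, adjusted p = 0.0903). Bcl2l1, Bak1 and Birc3 did not pass, with differences of 0.02, 0.20 and -0.04.

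**Figure D4:**
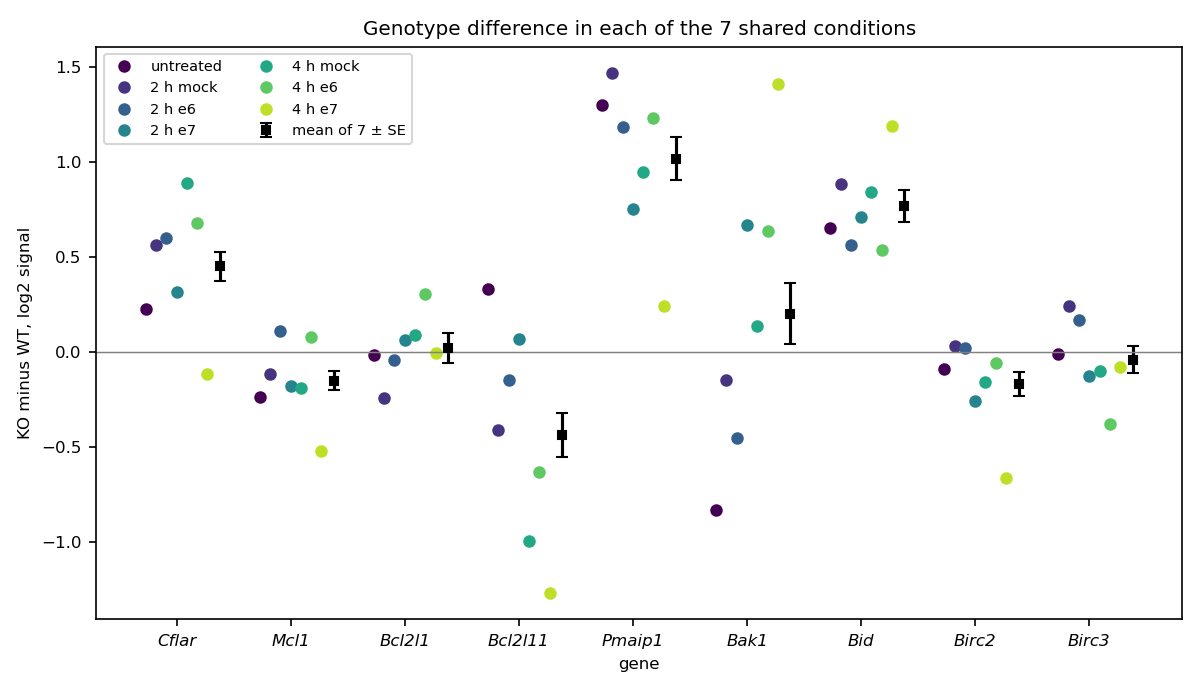
Log2 signal of KO minus WT (vertical axis) for each gene in each of the 7 shared conditions (coloured points, differences of group means), with a black square for the mean of the 7 ± limma SE. All 7 points of Pmaip1 (0.24 to 1.47) and of Bid (0.54 to 1.19) lie above 0, and those of Bcl2l11 and Bak1 lie on both sides.

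Of the 9 members, 3 were called higher and 3 lower in KO, against 35% of all genes called, 21.4% higher and 13.6% lower. With the 3′ to 5′ covariate 4 members were called. Markers of other cells moved with the genotype too. Of 7 measured T and NK cell markers 6 were called higher in KO, with a list mean of 2.38 to 4.02 on the 28 WT arrays other than beads and 2.60 to 5.71 on the 21 KO arrays. Of 6 monocyte and dendritic cell markers 3 were called higher, with list means of 3.72 to 5.69 and 4.42 to 6.41. Of 10 neutrophil markers 2 were called higher and 1 lower, of 9 alveolar macrophage markers 3 higher and 1 lower, of 4 endothelium and stroma markers 2 higher, and of 9 lung epithelium markers 2 lower. None of 3 B cell and 2 erythroid markers was called. Each of the 7 T and NK cell markers lay under a signal of 50 on 41 to 51 of the 51 arrays. Each of the 4 endothelium and stroma markers did so on 42 to 51 arrays. The 6 monocyte and dendritic cell markers did so on 2 (Ccr2) to 49 (Xcr1) arrays. Their part in the genotype differences was not tested. The labels give no processing date, so batch and genotype cannot be told apart.

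After mock instillation no member passed the test against untreated mice. As a mean over genotypes, 0 of 9 were called at 2 h, against 0% of all genes, and 0 of 9 at 4 h, against 0.186%. At 2 h and at 4 h, 0 members had an unadjusted p under 0.05, against 11.5% and 12.3% of genes. Cflar was 0.28 lower at 2 h and 0.23 lower at 4 h, with adjusted p-values of 0.464 and 0.528.

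Other genes of apoptosis changed in WT with e7 conidia at 4 h. Of 47 measured genes of a wider list of 60, 5 were called higher and 9 lower, which is 29.8% of the list against 17.5% of all genes called, 6.11% higher and 11.4% lower. The median difference was -0.21, against -0.08 over all genes. In the death receptor group of 14 measured genes, the receptors Tnfrsf1b (1.14, adjusted p = 0.000361) and Fas (0.97, adjusted p = 0.0318) rose. The adaptors Fadd and Tradd and the kinase Ripk3 fell, with differences of -0.92, -0.56 and -0.58. The ligand Tnfsf10 (TRAIL) was called lower too, but 8 of 8 arrays lay under a signal of 50, and with such signals set to 50 no difference was left, so it has no readable change here. Fadd was at 7.78 in mock and 6.86 with e7 conidia. All 4 e7 arrays lay below all mock arrays for Fadd, as for 6.48% of genes in this direction.

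Among 12 other Bcl2 family genes, the survival gene Bcl2l2 (Bcl-w) rose by 0.80 (limma, adjusted p = 0.00137) and Bcl2l13 fell by 0.58 (adjusted p = 0.00592). Bcl2l2 was also called higher with beads, by 0.85 (adjusted p = 0.0345). With the 3′ to 5′ ratio, 4.11 to 5.32 on bead and 1.19 to 2.34 on mock arrays, as a covariate that difference was 0.82 and lost its call (adjusted p = 0.249), as it did when only the groups compared were fitted (adjusted p = 0.298). Of 6 other IAP and NAIP genes, Birc6 and Naip2 fell by 0.71 and 0.42. Of 11 execution genes, Casp6 and Cycs fell, by 0.86 and 0.51, and Aifm1 rose by 0.62. Foxo3, a transcription factor known to regulate Bcl2l11, rose by 0.84 (adjusted p = 0.0111). A link between Foxo3 and Bcl2l11 was not tested here. At 2 h in WT the only call on the list was Mdm2, the p53 ubiquitin ligase, at 0.92 (adjusted p = 0.0443), 1 of 47 against 1.76% of all genes. In KO with e7 conidia, 4 of 47 were called higher at 2 h, which were Bcl2l13, Naip6, Tnfrsf1b and Casp9, against 5.88% of all genes higher and 8.54% called in all, and 0 of 47 at 4 h, against 0.00807%.

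Between the genotypes, 8 of the 47 were called higher and 10 lower in KO, which is 38.3% of the list and near the 35% of all genes called, 21.4% higher and 13.6% lower. Of these 18, Bcl2l10, Bmf, Fasl and Traf1 had means under a signal of 50 in both genotypes. Bok, a Bax-like effector, was 1.39 ± 0.13 higher, from a mean of 6.68 in WT to 8.08 in KO (limma, adjusted p = 4.46e-11), and the BH3-only gene Bbc3 (Puma) was 0.47 higher (adjusted p = 0.000782). Ripk3, of the necroptosis pathway, was 0.48 higher (adjusted p = 8.49e-07). Casp9 and Apaf1 of the mitochondrial caspase pathway were 0.46 and 0.18 lower, Casp2 was 0.42 lower, and the mitophagy receptor Bnip3 was 0.63 lower. Naip5 and Naip6, sensors of bacterial flagellin, were 0.55 and 0.25 lower. Foxo3 and Ddit3 were called higher in KO, whereas the main Bcl2l11 probe set was called lower.

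Over the 15 group means, 6810 other genes were compared with each member by Pearson correlation, as a description in which the points share arrays and scaling. The genes most like Cflar were C9orf72 (0.93), Zfand2a (0.91) and Nampt (0.90). Those most like Pmaip1 were Ap3s1 (0.96), Rgs1 (0.93) and Litaf (0.93), and those most like Bid were Plpp1 (0.97), Man1a (0.96) and Myof (0.95). Ptbp3 was most like Bcl2l11 (0.87), Cox7a2l most like Mcl1 (0.94) and Esco1 most like Birc2 (0.91). Katna1, Ap1b1 and Timm8a1 were most like Birc3, Bak1 and Bcl2l1, at 0.78, 0.91 and 0.89, with 6811 genes compared for Bak1. Among the members, Cflar and Pmaip1 had the highest correlation (0.83), followed by Pmaip1 and Bid (0.74), and Bcl2l11 and Bid the lowest (-0.71). Bcl2l11 was read here by its main probe set alone, from which other Bcl2l11 probe sets differed in sign in WT e7 against mock at 4 h.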

How the data were processed

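Gene expression was measured on Affymetrix mouse arrays in 51 samples. Per the labels' protocols, RNA was extracted with RNeasy columns and 100 ng was labelled with biotin by the two-cycle procedure. Each deposited value is a probe set's signal intensity, linear and not logged. GCOS and RMA are named in the submitters' processing notes, with no version or role. The mean signal after trimming 2% at each end was 495.8 to 498.3 per array over 22626 probe sets, 64 controls left out. The annotation table of the platform gave 20380 probe sets 1 gene symbol, 691 several and 1555 none.

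Log2 of the deposited signal, without pseudocount or filter, was fitted with limma 3.58.1 in R 4.3.3, with 1 mean per group and the spread pooled over all groups. Tests were two-sided, adjusted by Benjamini-Hochberg over all probe sets, and called at an adjusted p under 0.05. The number of arrays limits the precision. The fits were tested on simulated data. The members and lists were chosen with earlier results of these data known. Named genes were the members, called genes of the wider apoptosis list, the 3 genes most like each member, and Cybb.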

Additional observations from a re-analysis of the deposited data

Results flagged for a closer look

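Of 63 groups of 4 arrays tested for a sample far from the others, 2 held one, and chance alone sets apart about 1 in 20 groups. Cflar in WT with e7 conidia at 4 h was lowest on replicate 4, at 10.01 (log2 signal), and the nearest of the other arrays was at 10.41, a gap of 0.899 of the group's range. Bak1 in WT mock at 4 h was highest on replicate 4, at 7.41, with the nearest array at 6.10, a gap of 0.936 of the range. The limit for 4 samples was 0.829.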

How the results depend on the processing

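Of 144 member differences, 12 were called, and these passed in 421 of 473 refits. Uncalled differences passed in 12 of 2301 refits. Counts of called members changed as follows. For KO against WT, 6 members were called as reported, 4 with the 3′ to 5′ covariate (Mcl1 and Birc2 lost) and 5 with quantile normalization or under either alternative chosen after seeing the data (Birc2 lost). Leaving out probe sets with a mean under a signal of 100 also left out the main Bak1 probe set (mean 6.36, log2 signal). Of the members that remained, it gave 2 for WT e7 at 2 h (1 as reported) and 3 at 4 h (2 as reported). For the genotype difference in the e7 response at 4 h it gave 1 (0 as reported). The 3′ to 5′ covariate gave 0 for WT e7 at 2 h and 0 for beads, and 4 for the F-test (5 as reported). Fitting only the groups compared gave 0 for WT e7 at 2 h and 4 h and for beads, 1 for KO e7 at 2 h and 1 for e7 against e6. Without WT e7 arrays 2 and 3 at 4 h, an alternative chosen after seeing the data, WT e7 at 4 h and e7 against e6 gave 1 each and the F-test 3. The other alternative chosen after seeing the data left out the 3 WT arrays at 4 h highest in neutrophil markers, and Cflar at 4 h was then 1.31. Leaving out single arrays gave 0 to 1 for WT e7 at 2 h, 1 to 4 at 4 h, 0 to 1 for beads, 0 to 2 for e7 against beads, 1 to 2 for e7 against e6, 5 to 6 for KO against WT, 0 to 2 for the 4 h genotype difference and 4 to 6 for the F-test.

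By deviations from the group means, 0 of 161 pairs of arrays with the same replicate number correlated above 0.1 (-0.10 to 0.08). A weaker link between such arrays would not be seen at this threshold. With the replicate block, KO e7 at 2 h gave 1 called member, Bak1, and Bak1 in WT e7 at 4 h had an adjusted p of 0.0265. Where 1 of the compared values was called, other probe sets reversed a sign for Mcl1 in e7 against e6 (0.30), for Bcl2l11 in WT e7 at 4 h (-1.39 and -1.10) and for Bcl2l11 in KO against WT (0.14 and 0.12). Signs also differed between uncalled values, as for Bcl2l11 1435448_at (-0.39) and Bak1 1425716_s_at (1.16) in WT e7 at 4 h. The causes were not tested. Quantile normalization moved the median of all genes from 0.23 to 0.02 in KO e7 at 2 h, from 0.16 to 0.03 for beads, from -0.26 to -0.06 for e7 against beads, from 0.09 to -0.03 for KO against WT and from 0.20 to -0.01 for the 2 h genotype difference. Counts of all genes called, where members were called, moved as follows. For WT e7 at 2 h the 218 genes became 372 with signals under 50 set to 50, 575 without dim probe sets, 33 with the 3′ to 5′ covariate, 348 with the replicate block and 4 with only the groups compared. For beads the 145 genes became 269 (quantile), 1478, 307, 0, 289 and 0 in the same order. With only the groups compared, the 2172 genes of WT e7 at 4 h became 0 and the 1165 of e7 against e6 became 422.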
